A study of Mus musculus with 4 samples.

Results

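Collagens, laminins, the metalloproteinases that cut them and the inhibitors of those enzymes were examined in double positive thymocytes, immature T cells of the thymus that carry both CD4 and CD8. The genes were chosen by symbol: every probe set annotated to a single gene named as a collagen (Col), laminin chain (Lama, Lamb, Lamc), matrix metalloproteinase (Mmp), Adamts protease or Timp inhibitor was taken. This gave 171 probe sets of 89 genes, out of 18193 genes represented on the array. The set as a whole was selected on measured values, because large Cre-positive against Cre-negative differences of Col1a2, Mmp14 and Adamts6 were already known. All differences are therefore given as descriptions, and counts of genes passing a threshold only show where they stand against all genes.

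RNA came from 4 mice, 1 Affymetrix array each. The labels give 2 mice as Ikf/f CD4-Cre- (Cre-negative samples 1 and 2) and 2 as Ikf/f CD4-Cre+ (Cre-positive samples 1 and 2), so every mouse carried the same floxed Ikzf1 genotype and only the latter carried the CD4-Cre transgene, which uses Cd4 regulatory elements to express Cre recombinase from the double positive stage on and is meant to delete Ikaros. No Cre-positive mice without the floxed genotype are analysed here, so an effect of Cre itself cannot be told apart from loss of Ikaros. The sources used here do not give the ages of the mice or the way the cells were isolated. The comparison asks which transcripts differ once Ikaros, a zinc finger transcription factor needed by developing lymphocytes, is removed at this stage.

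Fibrillar collagens are rope-like proteins of connective tissue, made of wound chains, and type I collagen joins chains from Col1a1 and Col1a2. Laminins are cross-shaped proteins of basement membranes, each with an alpha, a beta and a gamma chain. Matrix metalloproteinases and Adamts enzymes are zinc proteases that cut these and other proteins outside the cell, and Timp proteins block them. In the thymus most matrix is known to be made by fibroblasts, epithelium and vessels, while lymphocytes bind it through integrins and other receptors.

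Values are log2 signals on the RMA scale (robust multi-array average), 1 value per probe set and array. Where a gene had several probe sets, the brightest on average stands for it, and a signal limit of 4.76, the 40th percentile of all probe sets with a single gene, separates measured genes from low ones. Ikzf1 read 12.40 and 12.08 without Cre against 10.80 and 10.62 with Cre, a difference of -1.53 ± 0.16 (moderated standard error, SE) that passed the test described with the counts, though not with any single array left out (-1.69 to -1.37). Its dimmer probe set differed by -0.22, and where these probe sets lie relative to the deleted part is not known here. The 8 measured genes of a list of double positive thymocyte markers (among them Rag1, Cd4, Cd8a and Dntt) averaged 11.91 and 12.02 without Cre against 11.81 and 11.85 with Cre. Their differences ran from -0.41 (Rag2) to 0.41 (Cd3e), and 0 passed. The arrays of the groups did not overlap for 6 that were lower and 1 that was higher. Of all genes with a mean over the limit, 18.7% and 34.2% showed the same. Cre-negative sample 2 had the signals of a female (Xist 12.75, against 4.73 to 5.37 elsewhere) and the others those of males. Transcripts a mouse of that sex should lack show where background lies: the Y-linked genes Eif2s3y, Kdm5d and Uty read 2.86 to 3.27 in Cre-negative sample 2, and Xist up to 5.37 in the males, so a reading somewhat above the limit does not by itself show expression. In a bulk sample, fewer cells that make a transcript and less of it per cell cannot be told apart.

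Most of the matrix genes lay near background. Of the 89 genes, 50 were under the limit on all 4 arrays, with values between 2.47 and 4.74, and 28 were at or above it on every array. Over all 18193 genes, 6052 were under the limit on all 4 arrays and 11125 were at or above it on every array. The 33 genes whose mean exceeded the limit are called kept. Among the kept genes 1 passed as higher in the Cre-positive mice (Mmp14) and 1 as lower (Adamts6) in limma at an adjusted p under 0.05, where 1.11% of all 11639 kept genes passed as higher and 0.266% as lower. With each array centred on its median, 2 passed as higher (Mmp14 and Lamb2) and 1 as lower. Without Cre-negative sample 1, and likewise without Cre-negative sample 2, 0 passed in either direction. Without Cre-positive sample 1 or without Cre-positive sample 2, 2 passed as higher (Mmp14 and Col1a2) and 0 as lower. The arrays of the groups did not overlap for 6 kept genes that were higher (Col1a2, Mmp14, Lamb2, Col27a1, Col5a1 and Col6a3) and 4 that were lower (Adamts6, Adamts10, Col20a1 and Col12a1), where 34.2% and 18.7% of all kept genes showed the same. Of the 6, Lamb2 and Col6a3 reached the limit only on Cre-positive arrays, so they were kept only through arrays in which they were high. Col6a3 read 4.70 and 4.68 without Cre against 4.93 and 4.74 with Cre. The median difference of the 33 genes was 0.01, against 0.06 over all kept genes. Of the 33 genes, 20 differed by less than 0.2 in size, as did 6563 of all 11639 kept genes.

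**Figure D1:**
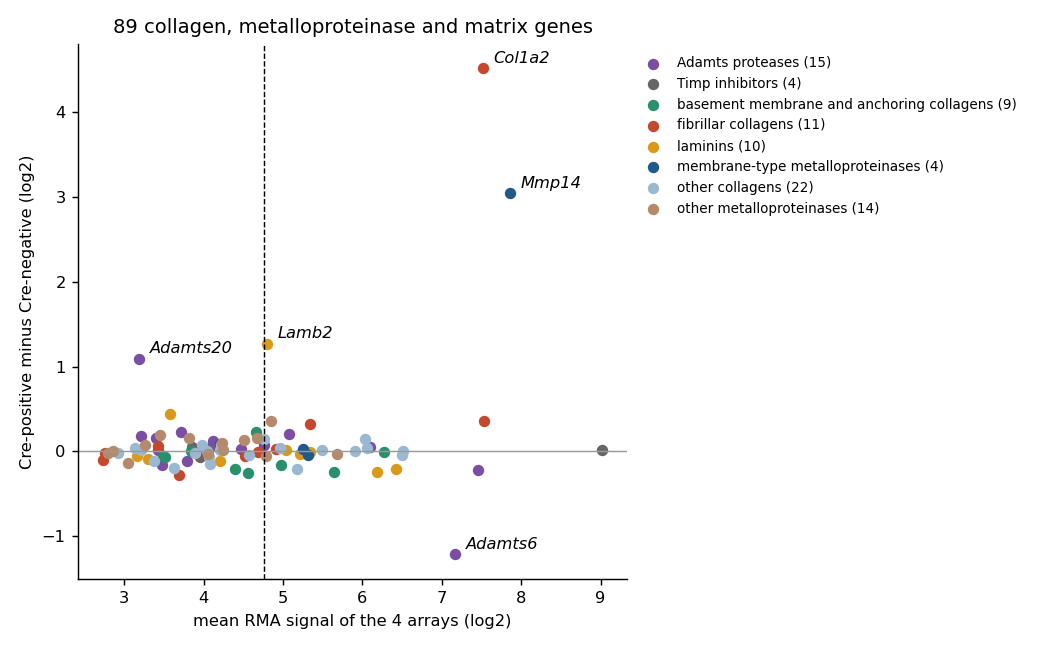
Mean log2 signal over the 4 arrays (horizontal) and Cre-positive minus Cre-negative difference (vertical) of the 89 genes, coloured by class, with the number of genes in brackets; the dashed line is the signal limit of 4.76. Col1a2 and Mmp14 stand at 4.52 and 3.05, Lamb2 at 1.27 beside the limit, Adamts6 at -1.22, and Adamts20 at 1.09 far below the limit.

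The promoters of the 3 members with the largest increases in signal, Col1a2, Mmp14 and Lamb2, are printed so that the stretches around their start sites can be read beside the values. Each runs from 250 bases before to 50 bases after the RefSeq start site (build GRCm38.p6, plus strand, 5′ to 3′): Col1a2 at chr6:4505368-4505667, Mmp14 at chr14:54431348-54431647 and Lamb2 at chr9:108479612-108479911. Capitals mark GGGAA on either strand, the core known to be bound by Ikaros proteins.
Col1a2: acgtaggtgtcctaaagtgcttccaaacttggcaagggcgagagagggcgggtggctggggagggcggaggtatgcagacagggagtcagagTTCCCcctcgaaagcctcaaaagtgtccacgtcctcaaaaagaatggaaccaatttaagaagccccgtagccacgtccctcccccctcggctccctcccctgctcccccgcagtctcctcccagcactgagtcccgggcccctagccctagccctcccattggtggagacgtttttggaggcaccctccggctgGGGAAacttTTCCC
Mmp14: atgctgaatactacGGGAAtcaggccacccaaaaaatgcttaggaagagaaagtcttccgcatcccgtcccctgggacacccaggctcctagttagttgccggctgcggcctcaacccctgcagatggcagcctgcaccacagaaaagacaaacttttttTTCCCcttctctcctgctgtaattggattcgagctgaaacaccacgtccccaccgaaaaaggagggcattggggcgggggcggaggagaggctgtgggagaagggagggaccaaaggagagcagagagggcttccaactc
Lamb2: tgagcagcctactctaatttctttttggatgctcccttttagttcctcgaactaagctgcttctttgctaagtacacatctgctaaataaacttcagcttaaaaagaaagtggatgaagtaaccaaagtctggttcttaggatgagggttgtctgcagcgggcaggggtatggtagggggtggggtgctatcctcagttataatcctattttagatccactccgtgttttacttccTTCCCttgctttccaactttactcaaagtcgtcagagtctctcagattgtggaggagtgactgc

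GGGAA or its reverse complement occurred 3 times in the Col1a2 window, 2 times in that of Mmp14 and 1 time in that of Lamb2. The longer form TGGGAA, which contains GGGAA, occurred in none of these windows. GGGAA is a short and common string, present in 62.7% of the 32851 promoter windows of the RefSeq table, and TGGGAA in 25.6%. Windows were found for 61 of the 89 genes (68 windows, since some genes have several start sites), and 51 of the 68 (75%) held GGGAA and 20 (29.4%) held TGGGAA. A match describes letters in the window and says nothing about binding.

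Col1a2, which encodes an alpha chain of type I collagen, showed the largest difference of any kept gene on the array. Its brightest probe set read 5.18 and 5.33 in the mice without Cre against 11.55 (sample 1) and 8.01 (sample 2) in those with it. The groups were far apart, yet the Cre-positive mice differed from each other by 3.54, the 4th widest gap between those arrays among kept genes, whose median gap was 0.13. The means were 5.26 ± 0.11 and 9.78 ± 2.50 (SD, n = 2 each), and the difference was 4.52 with an SE of 1.07, which did not pass. Each other probe set gave the same order of arrays. The next one read 3.22 and 3.51 against 9.16 and 5.75, a difference of 4.09. Its Cre-negative values lay under the limit and it was kept only through the Cre-positive arrays, so the size is uncertain. The dimmest read 2.90 and 3.41 against 5.63 and 3.52, so only Cre-positive sample 1 stood clear there. Without Cre-positive sample 1 the difference was 2.75, and without Cre-positive sample 2 it was 6.29; each of these fits passed, as neither held the spread between the Cre-positive mice.

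**Figure D2:**
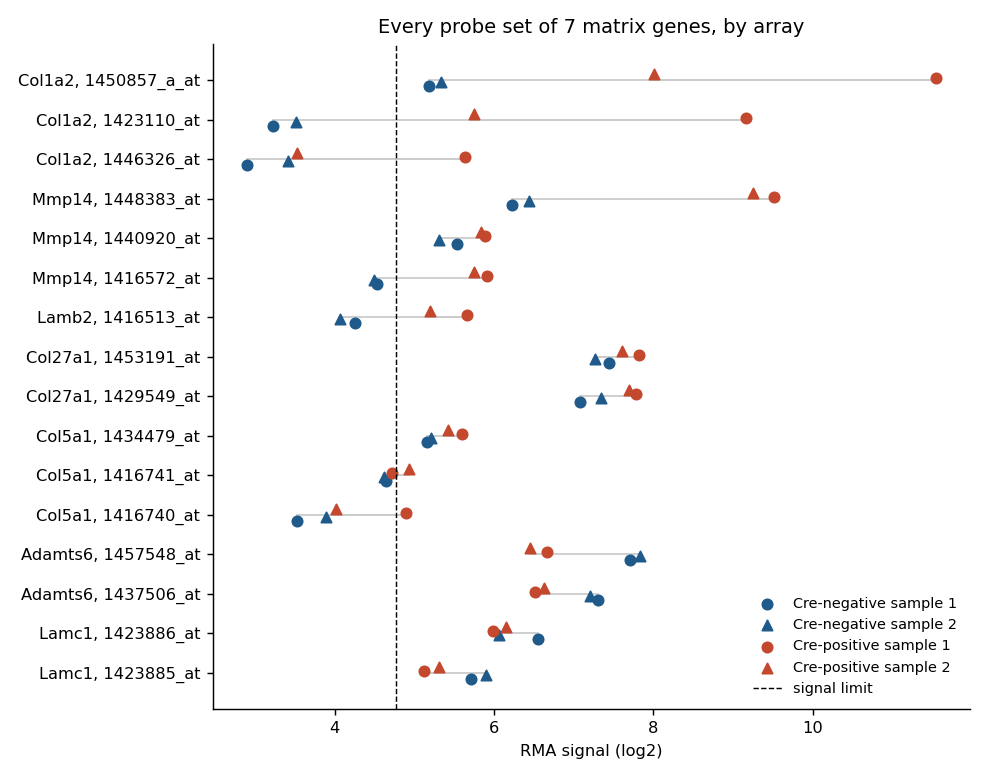
Log2 RMA signal (horizontal) of every probe set of 7 matrix genes on the 4 arrays; blue is Cre-negative, red is Cre-positive, circles are samples 1, triangles are samples 2, and the dashed line is the signal limit. All 3 Col1a2 probe sets are higher in Cre-positive sample 1 than in Cre-positive sample 2, whereas the Cre-positive samples lie close together for Mmp14 and Adamts6.

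The other fibrillar collagens did not share the size of this difference. Col1a1, the partner of Col1a2 in type I collagen, read 3.88 and 3.96 without Cre against 3.95 and 3.84 with Cre, under the limit throughout. Its other probe set differed by -0.29 at a mean of 3.20. Col3a1, the type III collagen chain that fibroblasts make along with type I, read 2.72 to 2.83 on the 4 arrays, under the limit. Col5a2, a chain of the type V collagen found within type I fibrils, read 3.68 and 3.98 against 3.55 and 3.56. The 41 collagen genes other than Col1a2 had 79 probe sets, and their differences ran from -0.39 to 0.75.

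Col27a1 and Col5a1 read slightly higher in the Cre-positive mice. Col27a1, a fibrillar collagen best known from cartilage, had a mean of 7.53. It read 7.44 and 7.26 against 7.81 and 7.61, a difference of 0.36 ± 0.14 (SE). The groups did not overlap, nor did they in its other probe set, which differed by 0.52. Col5a1, the main chain of type V collagen, read 5.15 and 5.20 against 5.59 and 5.42, a difference of 0.33 ± 0.12 (SE). Its dimmer probe sets differed by 0.75 and 0.20, again without overlap, but each reached the limit on only 1 array and neither was tested. Neither gene passed. Col11a2, the remaining kept fibrillar gene, differed by 0.03, and the 7 fibrillar genes that were not kept differed by -0.28 (Col5a2) to 0.06 (Col11a1). Of the 11 fibrillar genes, 4 were kept and 0 passed in limma. Of the kept ones 3 (Col1a2, Col27a1 and Col5a1, all higher) had an unadjusted p under 0.05 in limma, where 20.6% of all kept genes did.

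Mesenchymal cells are the known main source of type I collagen, so their markers are given beside Col1a2. Of 19 marker genes other than collagens, 11 were under the limit on all arrays, 7 were kept, 1 rose and 0 fell. Among all kept genes, 1.11% passed as higher and 0.266% as lower. The mean of the list was 4.42 and 4.53 without Cre against 4.48 and 4.61 with Cre. The part of such cells in the Col1a2 signal was not tested. Pdgfra, a receptor that marks fibroblasts, read 3.45 to 3.73, the small matrix proteoglycan gene Lum 3.58 to 3.81, and Dcn, another such proteoglycan, 5.04 and 5.16 against 4.93 and 4.86. Pdgfrb, the receptor of pericytes and other mural cells, was the member of the list that rose, by 1.04 ± 0.14 (SE), from 5.68 and 5.58 to 6.56 and 6.80, with 3.24 in its other probe set; it no longer passed with any 1 of the 4 arrays left out. Fap read 4.46 in Cre-positive sample 2 and 3.56 to 3.68 elsewhere. Fbln1, also on the list, differed by -0.14 in its brightest probe set, and its 3 probe sets ranged from -0.14 to 1.44.

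**Figure D3:**
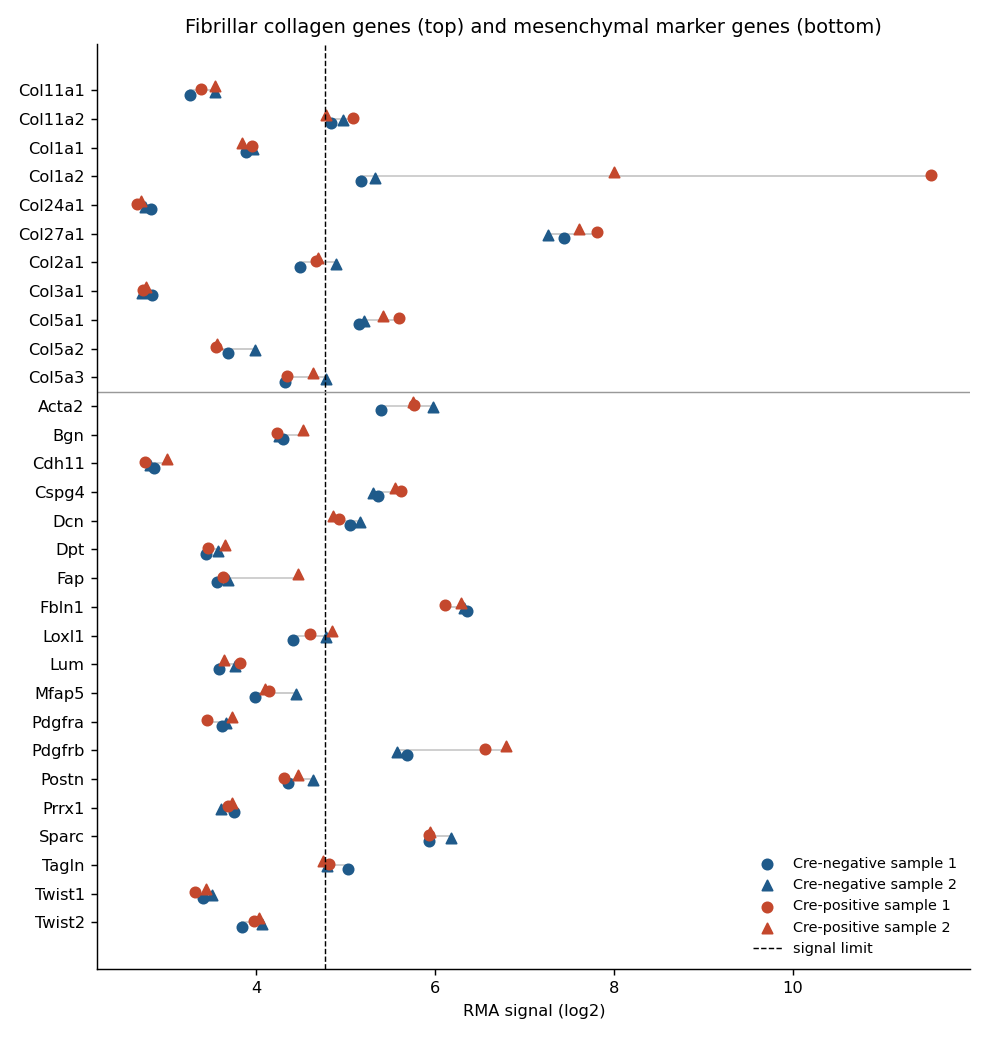
Log2 RMA signal (horizontal) of 11 fibrillar collagen genes, above the line, and 19 mesenchymal marker genes, below it, on the 4 arrays; colours and symbols separate groups and samples, and the dashed line is the signal limit. Col1a2 spans 5.18 to 11.55 while Col1a1 and Col3a1 stay under 4, and of the markers Pdgfrb shows the widest gap between the groups.

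Basement membrane and anchoring collagens were low or alike in the groups. None of the 6 type IV chains, the network collagens of basement membranes, was kept; Col4a1 read 4.38 and 4.62 against 4.19 and 4.39. Col15a1 and Col18a1, collagens with long non-collagen parts that sit at basement membranes, differed by -0.01 and -0.16. Col15a1 read 6.20 and 6.35 without Cre and 6.14 and 6.40 with it. Col7a1, the collagen of anchoring fibrils, read 5.91 and 5.62 against 5.63 and 5.41, a difference of -0.24 ± 0.16 (SE) with overlapping arrays. The class held 9 genes, of which 3 were kept and 0 passed in limma (0 also at an unadjusted p under 0.05).

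Of the 22 other collagens, 9 were kept and 0 passed in limma (0 also at an unadjusted p under 0.05), with differences from -0.21 to 0.15. Col16a1 and Col12a1, which coat the surface of larger fibrils, had means of 6.51 and 6.50 and differed by 0.00 and -0.05. Col9a3, a chain of a cartilage collagen, read 6.17 and 5.75 against 6.28 and 5.93, a difference of 0.15 ± 0.20 (SE). Col20a1 read 5.17 and 5.39 against 5.06 and 5.08, a difference of -0.21 ± 0.13 (SE), but its 4 probe sets ranged from -0.21 to 0.20. Col6a1, Col6a2 and Col6a3, the chains of the beaded microfibril collagen, differed by -0.15, 0.04 and 0.14, and Col6a1 was under the limit on every array.

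Among laminins, Lamb2 stood apart. This beta chain of basement membranes at synapses, kidney filters and vessels had 1 probe set, which read 4.26 and 4.06 without Cre against 5.67 and 5.19 with Cre. Both Cre-negative values lay under the limit and both Cre-positive values above it. The gene was thus kept only through the arrays in which it was high, and its difference of 1.27 ± 0.19 (SE), which did not pass, is given as a description with an uncertain size. Lamb1, the more widespread beta chain, read 3.24 and 3.48 against 3.93 and 3.67 in its brightest probe set, all under the limit.

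The other laminin chains were alike in the groups or low. Lamb3, the beta chain of epithelial laminin, read 6.73 and 6.32 against 6.20 and 6.43 and differed by -0.21 ± 0.18 (SE). Lamc1, the gamma chain shared by most laminins, read 6.55 and 6.07 against 5.98 and 6.15, a difference of -0.24 ± 0.19 (SE) with overlap. Its dimmer probe set read 5.71 and 5.89 against 5.12 and 5.31, a difference of -0.59 without overlap, so the 2 probe sets disagree in size. The alpha chain genes Lama2 and Lama5 differed by -0.03 and 0.00 at means of 5.21 and 5.34, while Lama1, Lama3 and Lama4 were under the limit on all arrays. Lamc3 differed by 0.01. Of the 10 laminin genes, 6 were kept and 0 passed in limma (1, Lamb2, had an unadjusted p under 0.05, where 20.6% of all kept genes did).

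Mmp14 rose in the Cre-positive mice. It encodes a membrane-anchored metalloproteinase that cuts collagen at the cell surface and is known to activate the secreted enzyme made from Mmp2. Its brightest probe set read 6.23 and 6.44 without Cre against 9.51 and 9.25 with Cre, so the groups were far apart and the mice within them close. The means were 6.33 ± 0.15 and 9.38 ± 0.19 (SD, n = 2 each), a difference of 3.05 ± 0.15 (SE) or 8.28-fold, the 15th highest among kept genes. The next probe set read 4.53 and 4.49 against 5.91 and 5.74, a difference of 1.32, and the last read 5.53 and 5.31 against 5.89 and 5.83, a difference of 0.44. All 3 had the same direction without overlap but differed in size, and the mean of the probe sets gave 1.60. The gene no longer passed without Cre-negative sample 1 (2.95) or without Cre-negative sample 2 (3.15). Without the latter, the female, the difference of Col1a2 was 4.60, of Lamb2 1.17 and of Adamts6 -1.16.

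Other metalloproteinases did not pass. The membrane-type genes Mmp17 and Mmp24 read 5.23 to 5.39 and 5.08 to 5.45 and differed by -0.04 and 0.03. Mmp2, which makes the gelatinase that Mmp14 protein activates, read 4.43 and 4.46 against 4.65 and 4.51, under the limit. Of the 14 genes of the remaining class 3 were kept: Mmp11, at a mean of 5.68, differed by -0.04, Mmp7 by -0.05 and Mmp9 by 0.36. The collagenase and stromelysin genes Mmp1a, Mmp1b, Mmp3, Mmp10 and Mmp13 were under the limit on all arrays.

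Mmp9 and Mmp8 encode proteases stored in neutrophil granules. Mmp9 read 4.54 and 4.79 without Cre against 4.75 and 5.30 with Cre, and Mmp8 read 3.71 and 3.77 against 3.73 and 4.06. Both were highest in Cre-positive sample 2, but Mmp8 was under the limit on all arrays and was not tested. Mmp9 reached the limit only in Cre-negative sample 2 and Cre-positive sample 2, and its other probe set read 3.57 to 3.88. The mean of 8 granulocyte markers was 4.60 and 4.53 without Cre against 4.53 and 6.36 with Cre, with S100a8 at 8.38 in Cre-positive sample 2 and 4.02 to 4.52 elsewhere. Ngp read 7.81 and Ltf 6.50 in Cre-positive sample 2, and at most 5.42 and 4.58 elsewhere. Elane and Csf3r of the same list read 4.85 to 5.05 and 4.09 to 4.38 over all arrays. The part of these cells in the Mmp9 and Mmp8 values was not tested.

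Adamts6 fell in the Cre-positive mice. It belongs to the secreted proteases with thrombospondin repeats and is a close relative of Adamts10, which acts on fibrillin microfibrils. The brighter Adamts6 probe set read 7.71 and 7.83 without Cre against 6.66 and 6.45 with Cre. The means were 7.77 ± 0.09 and 6.55 ± 0.15 (SD, n = 2 each), a difference of -1.22 ± 0.13 (SE), 2.33-fold, the 17th lowest among kept genes. The other probe set read 7.31 and 7.20 against 6.51 and 6.63, a difference of -0.69. In both probe sets each Cre-positive array lay below each Cre-negative array. With any single array left out the call did not stand, while the difference stayed between -1.33 and -1.11. Each such fit has 1 residual degree of freedom.

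Adamts10 read 7.63 and 7.51 on the Cre-negative against 7.38 and 7.31 on the Cre-positive arrays. The difference of -0.22 ± 0.12 (SE) did not pass. Adamts9 and Adamts16, the other kept genes, differed by 0.20 and 0.05 with overlap. Adamts20 read 2.47 and 2.80 against 3.34 and 4.11, a difference of 1.09, but all 4 values lay under the limit and the gene was not tested. Of the 15 Adamts genes, 10 were under the limit on all arrays, among them Adamts3, which trims procollagen ends, and the cartilage proteases Adamts4 and Adamts5.

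Of the 4 Timp inhibitors only Timp2 was kept. Timp2 protein inhibits metalloproteinases and also takes part in the activation of the Mmp2 product on the cell surface together with Mmp14 protein. Its brightest probe set read 9.08 and 8.93 without Cre against 9.08 and 8.97 with Cre, a difference of 0.02 ± 0.12 (SE). The next probe set differed by 0.32 without overlap, and all 6 ranged from -0.12 to 0.32. Timp1 read 3.92 to 4.20, Timp3 3.79 to 4.12 and Timp4 3.81 to 3.88, each under the limit.

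Counted by probe set, 47 of the 171 were kept and 3 passed in limma, 2 of Mmp14 as higher and 1 of Adamts6 as lower. The dimmer of these Mmp14 probe sets lay under the limit in both Cre-negative samples and was kept only through the Cre-positive arrays. Over all 20967 kept probe sets, 0.639% passed as higher and 0.229% as lower. Without Cre-negative sample 2 or without Cre-positive sample 1, 0 of the 47 passed, and without Cre-negative sample 1, 1 passed. Of the 22 kept genes with several probe sets, 11 had differences of a single sign, among them Col1a2, Mmp14, Adamts6, Col27a1 and Col5a1. The share among all kept genes with several probe sets was not computed, so this count is a description only.

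Genes that build or anchor collagen were examined from lists of the pathway. Of 26 measured genes of collagen synthesis and cross-linking, 17 were kept, 0 rose and 0 fell in limma (4 had an unadjusted p under 0.05, where 20.6% of all kept genes did), with a median difference of 0.15, against 0.06 over all kept genes. Plod2, a lysyl hydroxylase for collagen cross-links, read 6.20 and 6.90 against 7.68 and 7.34, a difference of 0.96 ± 0.26 (SE). Bmp1, which trims procollagen ends, differed by 0.71 ± 0.24 and Colgalt1, a collagen galactosyltransferase, by 0.58 ± 0.14 (SE each). Plod2, Bmp1 and Colgalt1 did not pass, and the 3 probe sets of Bmp1 ranged from 0.01 to 0.71. The collagen chaperone gene Serpinh1 read 4.25 and 4.36 against 4.54 and 4.72, under the limit, and Lox, the lysyl oxidase gene, read 4.13 and 4.27 against 4.78 and 4.32. The general folding genes Ppib and P4hb read 11.43 to 11.78 and 11.03 to 11.22 and differed by 0.23 and 0.15.

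Of 15 measured receptors for collagen and laminin, 10 were kept, 1 rose and 0 fell, with a median difference of 0.17. Over all kept genes the median was 0.06, and 1.11% passed as higher and 0.266% as lower. Ddr1, a receptor kinase that binds collagen, rose from 6.99 and 6.79 to 10.21 and 10.02. Its difference was 3.22 ± 0.14 (SE), but its 8 probe sets ranged down to -0.12, which was its value without probe sets that may detect several transcripts, and it no longer passed without Cre-negative sample 2. Dag1, which encodes the laminin receptor dystroglycan, read 8.11 and 8.18 against 8.86 and 8.74, a difference of 0.66 ± 0.12 (SE) that did not pass. Itga6 and Itgb1, which pair as a laminin receptor of thymocytes, differed by 0.17 and 0.25. Ddr2, the other collagen receptor kinase, differed by -0.03.

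Among 13 measured genes that control matrix proteases, 10 were kept, 2 passed as higher and 0 as lower, with a median difference of 0.24. All kept genes had a median of 0.06, and 1.11% of them passed as higher and 0.266% as lower. Tgm2, the transglutaminase that cross-links matrix proteins, rose by 2.19 ± 0.24 (SE), from 4.86 and 4.80 to 7.39 and 6.67, though its probe sets ranged from -0.06 to 2.22. Lrp1, a receptor that takes up proteases and their inhibitors, read 4.42 and 4.19 without Cre against 5.78 and 5.44 with Cre. It passed as higher, with a difference of 1.31 ± 0.17 (SE), but both Cre-negative values lay under the limit and it was kept only through the Cre-positive arrays, so the size is uncertain. Furin, the convertase that removes the propeptide of the Mmp14 product, read 5.95 and 5.90 against 6.48 and 6.50, a difference of 0.57 ± 0.11 (SE) that did not pass. Sdc1, a cell surface proteoglycan, read 5.71 and 5.70 against 6.34 and 6.50, a difference of 0.72 ± 0.12 (SE) that did not pass, while its 4 probe sets ranged from 0.28 to 3.28. Reck, a membrane inhibitor of metalloproteinases, differed by 0.26 and Cd44, a hyaluronan receptor that binds Mmp14 protein, by -0.61. The 4 probe sets of Cd44 ranged from -0.61 to -0.001. Tgm2 no longer passed without Cre-negative sample 1 or 2, and Lrp1 with any 1 of the 4 arrays left out.

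Of 21 other matrix protein genes, 8 were kept, 1 rose and 0 fell, with a median difference of 0.03. The median over all kept genes was 0.06, and 1.11% of those passed as higher and 0.266% as lower. Agrn, the basement membrane proteoglycan agrin, rose by 0.86 ± 0.12 (SE), from 5.50 and 5.35 to 6.24 and 6.33, with a further probe set at -0.03; it no longer passed with any 1 of the 4 arrays left out, or without probe sets that may detect several transcripts. Hspg2, the basement membrane proteoglycan perlecan, read 8.34 and 8.72 against 8.69 and 8.74. Emilin1, an elastic fibre protein, differed by 0.78 ± 0.21 and Fbln2 by -0.76 ± 0.28 (SE each), and neither passed. The other Fbln2 probe set differed by -0.05. Fn1 (fibronectin) and Eln (elastin) differed by 0.03 and 0.04. Fbln1 differed by -0.14, with its 3 probe sets ranging from -0.14 to 1.44, and 13 genes of the list, among them Postn, Tnc and Vcan, were under the limit on all arrays.

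**Figure D4:**
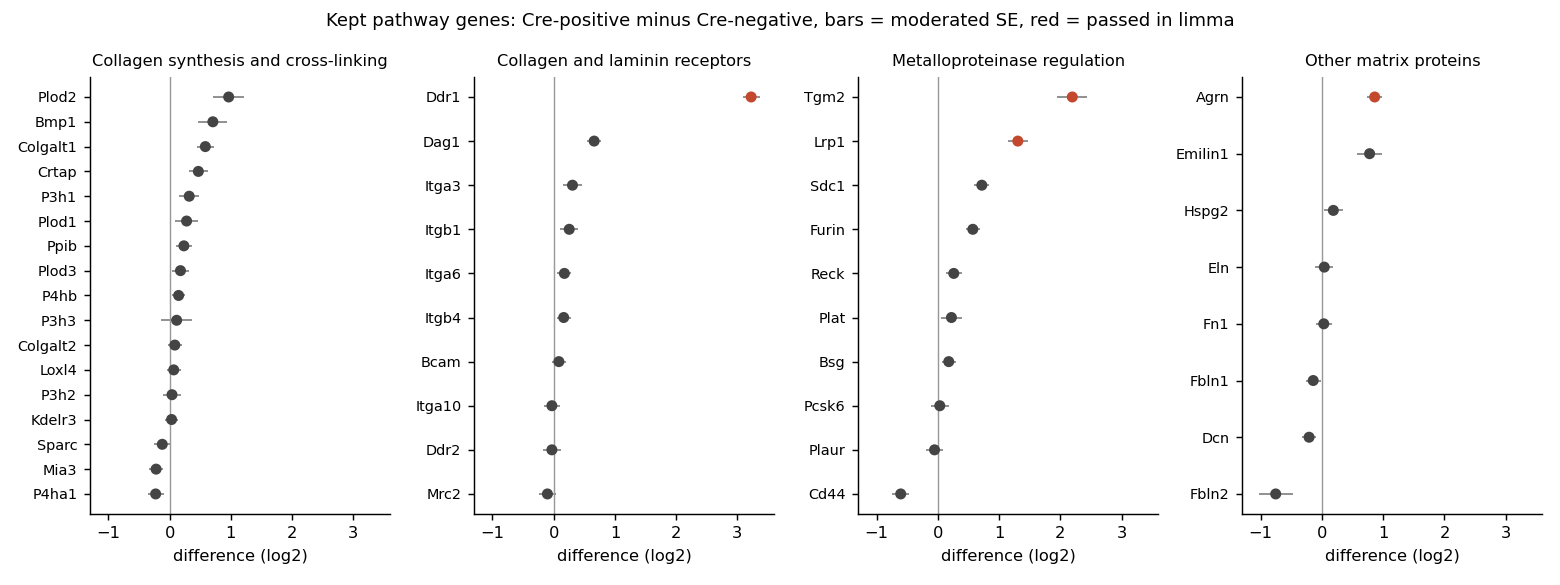
Cre-positive minus Cre-negative difference in log2 signal (horizontal, with bars of 1 moderated SE) of the kept genes in 4 pathway lists, red where the gene passed in limma. Ddr1 at 3.22, Tgm2 at 2.19, Lrp1 at 1.31 and Agrn at 0.86 are red; no gene of collagen synthesis is.

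Markers of other cells that make or remodel matrix were read on the same arrays. Of 10 endothelial genes 3 were kept and 0 passed in limma (0 also at an unadjusted p under 0.05); Cdh5, Tek and Vwf were under the limit on all arrays, and the list mean was 4.12 to 4.20. Of 12 thymic epithelial genes 8 were kept and 1 rose, the tight junction gene Cldn4, by 1.00 ± 0.13 (SE), which did not stand with any 1 of the 4 arrays left out; Foxn1, Psmb11 and Krt14 were under the limit. Of 12 macrophage genes 7 were kept and 1 rose, Lyz2, by 1.85, which did not stand without Cre-negative sample 1 or 2. The share of all kept genes that passed as higher was 1.11%. The macrophage list mean was 4.67 and 4.74 without Cre against 5.17 and 5.10 with Cre. The arrays of the groups did not overlap for 4 kept macrophage genes, all higher (Lyz2, C1qa, C1qb and C1qc). Of all kept genes, 34.2% were higher without overlap. C1qc lay under the limit in both Cre-negative samples and was kept only through the Cre-positive arrays. Csf1r differed by 0.19 with overlap, and its probe sets ranged from 0.19 to 1.21. C1qa differed by 1.11 ± 0.18 (SE), which did not pass, and Adgre1 of the same list by -0.03 with overlap. The macrophage protease gene Mmp12 read 3.20 to 3.34. Whether these cells contributed to the Mmp14, Lamb2 or Tgm2 signals was not tested.

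Genes beside the 4 most changed members were read to see whether the difference was shared along the chromosome. The 3 protein-coding genes on each side were taken from the RefSeq gene order, a choice made after the values were seen. Of the 24 neighbours 20 were kept, and 0 passed in limma (3 had an unadjusted p under 0.05, namely Slc7a7, Mrpl52 and Ppwd1, where 20.6% of all kept genes did). Around Col1a2 the neighbours differed by -0.38 (Sgce) to 0.24 (Casd1), where Casd1 read 10.42 and 10.37 against 10.71 and 10.56. Around Lamb2 the 6 neighbours differed by -0.14 to 0.23. On 1 side of Mmp14, Mrpl52, a mitochondrial ribosome gene, read 9.41 and 9.54 against 10.43 and 10.15, a difference of 0.81, and the amino acid transporter gene Slc7a7 read 4.90 and 5.32 against 6.32 and 5.90, a difference of 1.00. On its other side Lrp10, Rem2 and Prmt5 differed by -0.20, 0.13 and -0.02. Beside Adamts6, Ppwd1 read 6.86 and 7.05 against 7.49 and 7.40, a difference of 0.48, and Cenpk, a kinetochore gene, differed by 1.09, with overlapping arrays at 6.35 and 8.02 against 7.71 and 8.84.

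**Figure D5:**
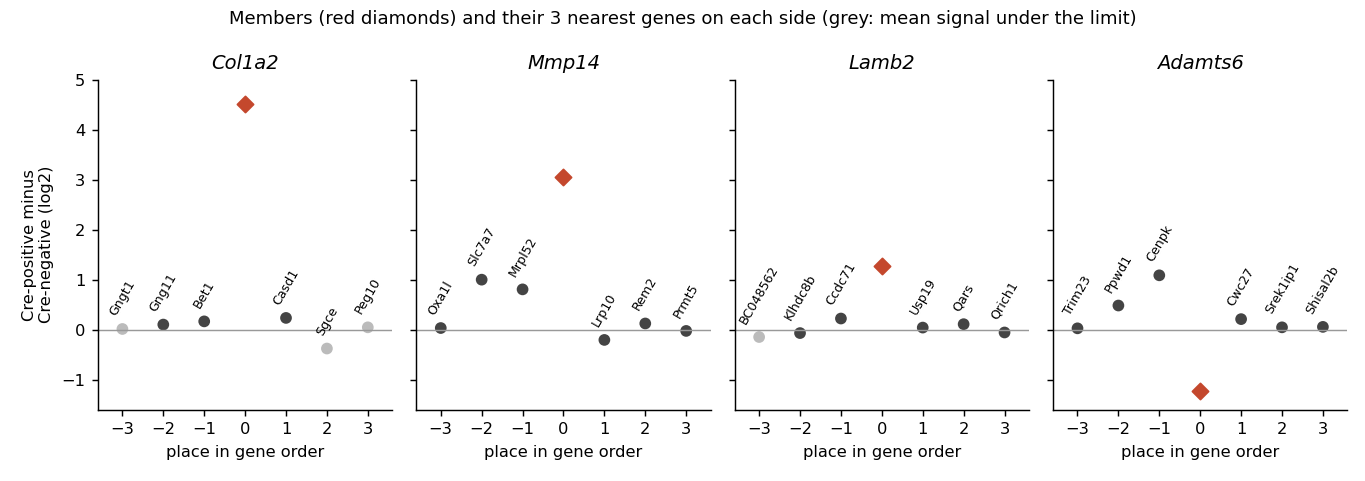
Cre-positive minus Cre-negative difference in log2 signal (vertical) of Col1a2, Mmp14, Lamb2 and Adamts6 (red diamonds at 0) and of the 3 protein-coding genes on each side in gene order (dots; pale dots have a mean signal under the limit). The diamonds lie far from their neighbours, of which Slc7a7 at 1.00, Mrpl52 at 0.81 and Cenpk at 1.09 differ most.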

How the data were processed

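Double positive thymocyte RNA of 4 mice was measured on 4 arrays, 2 per group. The authors deposited log2 signals made with RMA, which the submitters' processing notes name without a version; the base of the logarithm is that of RMA and is not stated in a label. Per the labels' protocols, RNA was labelled in 2 cycles from 1 of several listed input amounts; which sample had which amount is not given, so its part in any difference was not tested. No scanner files were used here.

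Of 45037 probe sets, 34945 had 1 gene symbol in the platform annotation, 932 several and 9160 none; 34741 matched the RefSeq gene table by Entrez identifier, and all 89 members did. Groups were compared by limma 3.58.1 in R 4.3.3 (lmFit and eBayes, 2 residual degrees of freedom, prior 3.59), two-sided, Benjamini-Hochberg adjusted over all 11639 kept genes or 20967 kept probe sets. The procedure was tested on simulated data with independent normal noise and the same shift on both Cre-positive arrays. That setting does not cover a gene such as Col1a2, whose Cre-positive arrays lay far apart. Arrays, 2 per group, limit the precision. Pathway and marker genes came from lists; symbols not found are not analysed here. Kept genes have a mean signal over the 40th percentile of named probe sets. The rule for named genes took Ikzf1, every member that passed, every kept member that differed by at least 1, per class the 2 brightest members and the kept member most different in each direction, all Timp genes, members under the limit with a probe set differing by at least 1, and from the lists the genes that passed, kept genes differing by at least 1 and up to 4 bright ones. Further genes named, the neighbours, the motifs and the sex-linked genes were chosen after values were seen. The members and lists were chosen with earlier results of these data known. Figures were drawn with matplotlib 3.10.9.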

Additional observations from a re-analysis of the deposited data

How the results depend on the processing

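The number of members passing as higher was 1 in the reported comparison. It was 2 without a signal filter, with an intensity trend in the variance, after centring each array on its median and after averaging a gene's probe sets, where Lamb2 joined Mmp14 each time, and 1 with array weights, with a stricter filter (60th percentile) and when probe sets that may detect several transcripts were dropped. With single arrays left out it ran from 0 to 2; the number passing as lower was 0 each time, and the number of passing probe sets ran from 0 to 3, against 3 reported. With the sample number as a replicate block, 3 members passed as higher (Col1a2, Lamb2 and Mmp14), 1 as lower and 7 probe sets in all. No label ties equal numbers to a shared litter or day, and deviations of equal-numbered samples from their group means correlated at 0.148 across probe sets over the limit, so the number is not treated as a pairing.

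Over all kept genes, 129 passed as higher and 31 as lower; the count moved by over 1.5 times with the stricter filter (68 higher), the trend (54 lower), the replicate block (628 and 193), the dropped probe sets (73 higher) and single arrays left out (3 to 95 higher, 0 to 4 lower). Alternatives were run for the 21 kept members named by the rule, and among these, differences of at most 0.204 in size changed sign. Centring turned Col16a1 to -0.026 and Timp2 to -0.011. With single arrays left out, Adamts9 ran from −0.13 to 0.54, Col11a2 from −0.12 to 0.18, Col15a1 from −0.14 to 0.12, Col16a1 from −0.12 to 0.13, Col9a3 from -0.059 to 0.35, Mmp11 from −0.18 to 0.10, Mmp17 from −0.10 to 0.021, Mmp7 from −0.28 to 0.17 and Timp2 from -0.057 to 0.10. Ddr1 was -0.12 with the dropped probe sets. Every leave-out fit has 1 residual degree of freedom and assumes that a lone array varies like the other group. Scanner files were not used here, so the RMA steps were not varied. For the 50 genes under the limit on all arrays, a difference could be hidden by background.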
